A study of Xenopus laevis with 6 samples.

Results

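DEAD and DEAH box proteins are RNA helicases named after the amino acid letters of a motif that binds ATP. They use ATP to open short RNA duplexes, to strip proteins from RNA or to clamp onto it, and nearly every step in the life of an RNA, from transcription and splicing through export and translation to decay and ribosome assembly, needs some of them. An early frog embryo holds large maternal stores of RNA and begins to transcribe its own genome at the blastula stage, so at gastrulation these helicases act on maternal and embryonic RNA together. The transcripts of this family were compared between dorsal gastrula tissue of control embryos and of embryos in which the gene apcdd1 had been targeted.

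The family was defined by name, as every probe set with a single platform gene symbol that starts with ddx or dhx and a number. A probe set is a group of array probes for 1 transcript. The germ cell genes ddx4 and ddx25 were left out, which took out 3 probe sets. The rule gave 52 of the 32634 probe sets on the array. They cover 33 of the 9273 genes with a symbol of their own, 24 of them ddx and 9 dhx. Another 16851 probe sets have no symbol and 279 have several. A gene or copy not found by name may therefore still be on the array. Xenopus laevis is an allotetraploid frog, and the ending .L or .S marks the copy (homeolog) on the long or the short member of a chromosome pair. Both homeologs were represented for 7 genes, the L copy alone for 20 and the S copy alone for 6, which makes 40 gene copies. Of these, 10 had more than 1 probe set. The members were not chosen by their signal, although the family was proposed with earlier results of these arrays known.

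No strain is given in the labels. At the 4-cell stage the 2 dorsal blastomeres of each embryo received 10 ng of a morpholino (MO), an antisense oligonucleotide analog that stops its target RNA from being translated or spliced. The control group received a control MO and the depleted group an MO against apcdd1, which encodes a membrane inhibitor of Wnt and BMP signals. Embryos developed at 16 °C to stage 10.5, an early gastrula with a visible dorsal lip, when the dorsal side was cut out. Each of the 6 Affymetrix arrays, 3 per group, was hybridised with RNA from a batch of 10 embryos. The treatment text of the control samples also names the apcdd1 MO, so the groups follow the genotype label and the titles. Only depleted embryos were marked with a ventral dye, because the dorsal lip was late in some of them. Whether the batches stem from separate clutches is not stated, so each p-value reflects only how these batches varied, which may be technical.

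Median signals ran from 44.4 to 45.7 over the 6 arrays. The correlation of log2 signals was between 0.987 and 0.995 within the control group, between 0.993 and 0.996 within the depleted group, and between 0.984 and 0.988 across them. For apcdd1.L the control arrays averaged 308 ± 7.55 and the depleted arrays 246 ± 15.5 (SD, n = 3; limma, adjusted p = 0.027), which does not measure how far the protein was depleted. This call ended with the replicate block (adjusted p = 0.061 in limma) and when any single array except control batch 3 was left out (adjusted p between 0.060 and 0.094 in limma). The groups were compared on 11 dorsal organizer genes, of which 19 probe sets were above the filter on dim signals. Without arrays of other tissue these values cannot show that the tissue was dorsal. The log2 change was below 0 for all 19, beside 49.9% of all tested probe sets. In limma 6 of the 19 were called lower and 0 higher, beside 3.61% lower and 3.00% higher of all tested probe sets. The summed signal of the 19 was 19693 to 23247 in control and 17330 to 18262 in depleted arrays. Of 13 tested probe sets of ventral genes 3 were called higher and 1 lower, to be read against the same shares. The log2 change was below 0 for 8 of the 13, with a median of -0.04, while the summed signal was 4158 to 4465 in control and 4821 to 5061 in depleted arrays. The 3′ to 5′ signal ratio of gapdh, a sign of RNA integrity, was 1.77 ± 0.03 and 1.87 ± 0.07 (SD, n = 3). These marker and integrity values, the dye mark and the late dorsal lip of some depleted embryos move with the group for every result below. Their part in those results was not tested.

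Most of the family, as defined by name, differed little between the groups. Of the 52 probe sets, 46 (37 gene copies) passed a filter on dim signals set at a mean signal of 22.3, and 2 of these were called at an adjusted p under 0.05 in limma. After depletion 1 was higher and 1 lower. Over all 19484 tested probe sets the same call was made for 6.62%, with 3.00% higher and 3.61% lower, so a count of 2 in 46 (4.35%) is near the background. An unadjusted p under 0.05 was found for 9 of the 46 (19.6%) in limma, beside 19.0% of all tested probe sets. Counts of both kinds given below for small groups are to be read against these shares, 6.62% called and 19.0% unadjusted. The probe set that rose was for ddx39b.L, encoding a helicase of spliceosome assembly and mRNA export, and the one that fell was for ddx59.L, encoding a helicase linked to a human orofaciodigital syndrome. The other 44 did not pass. In bulk tissue, fewer cells of a type and less RNA per cell cannot be told apart.

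The sizes of the differences were small. The log2 change ran from -0.79 to 0.44 over the 46 tested probe sets, with a median of -0.04 against 0.00 over all tested probe sets. It was under 0.2 in size for 39 of the 46 (84.8%), compared with 77.4% of all tested probe sets. None of the 46 reached a 2-fold difference, compared with 142 of all 19484 tested probe sets. The 95% interval of the change lay within 1.5-fold in both directions for 42 of the 46 (91.3%), compared with 88.4% of all tested probe sets. The 4 exceptions were ddx39b.L, both probe sets of ddx59.L and the dimmer probe set of dhx8.S. For 35 of the 46 (76.1%) the range of the 3 control arrays on the log2 scale was wider than the difference between the group means, against 71.4% of all tested probe sets. With array weights in the fit the count of calls rose to 1 higher and 9 lower, while the count over all probe sets rose to 4449.

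**Figure D1:**
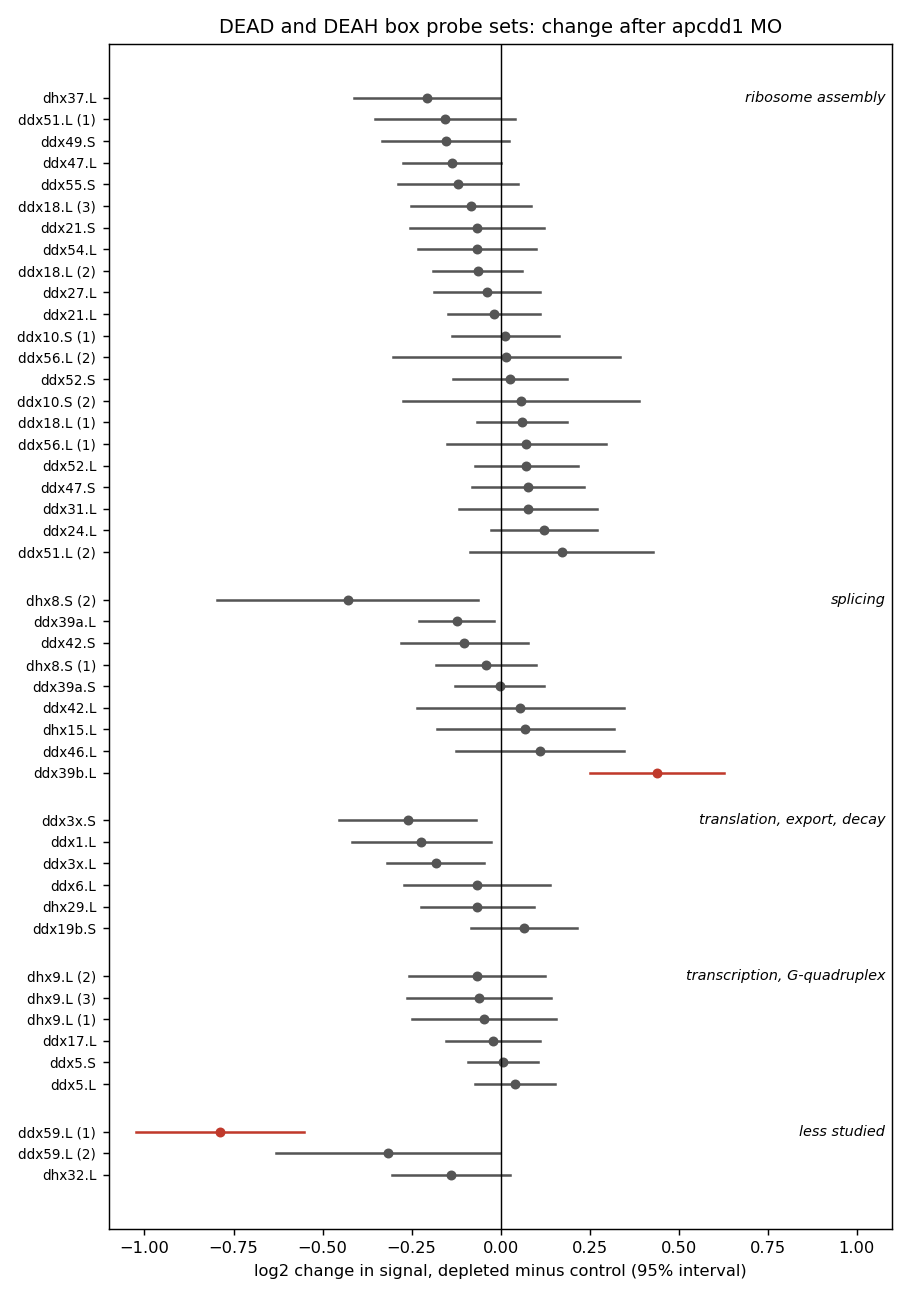
Log2 change in signal (depleted minus control) of the 46 tested DEAD and DEAH box probe sets on the x axis, with points for the estimate and lines for the 95% interval, grouped by role on the y axis. Red marks the 2 probe sets called in limma, ddx39b.L at 0.44 and ddx59.L at -0.79. A number in brackets ranks the probe sets of one gene copy from bright (1) to dim.

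The clearest difference was in ddx59.L, whose protein has been tied to Hedgehog signalling in humans but whose RNA targets are poorly known. On its brighter probe set, Xl2.3767.1.A1_at, the control arrays gave signals of 151, 169 and 196 and the depleted arrays 97.2, 106 and 94.0. All 3 depleted arrays lay well under the lowest control array, and control batch 3 stood highest. The mean fell from 172 ± 22.5 to 98.9 ± 6.04 (SD, n = 3), 1.73-fold lower. This is -0.79 ± 0.11 on the log2 scale (SE; limma, adjusted p = 0.0020). The call was kept in each of the 15 alternative fits, with log2 changes from -0.88 to -0.53. A dimmer probe set of ddx59.L, Xl2.3767.2.S1_at, gave 24.8, 24.2 and 31.5 in control and 21.4, 18.9 and 24.2 in depleted arrays. These signals are near the filter's level, and depleted batch 3 and control batch 2 are almost equal. Its log2 change was -0.32 ± 0.14 (SE) and did not pass (adjusted p = 0.26 in limma).

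The probe set of ddx39b.L, Xl2.3000.1.S1_at, went the other way. In other animals the protein, also called UAP56, joins early spliceosomes and loads export factors onto mRNA. Its signals were 212, 227 and 193 in control and 266, 294 and 296 in depleted arrays. The groups did not overlap, and depleted batch 1 was the lowest of its group. The mean rose from 211 ± 16.7 to 286 ± 16.6 (SD, n = 3), 1.36-fold higher. This is 0.44 ± 0.08 on the log2 scale (SE; limma, adjusted p = 0.012). The call ended without depleted batch 2 (adjusted p = 0.058 in limma) and without depleted batch 3 (adjusted p = 0.069 in limma), where the log2 changes were 0.42 and 0.41. No S copy of ddx39b or of ddx59 was among the members.

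**Figure D2:**
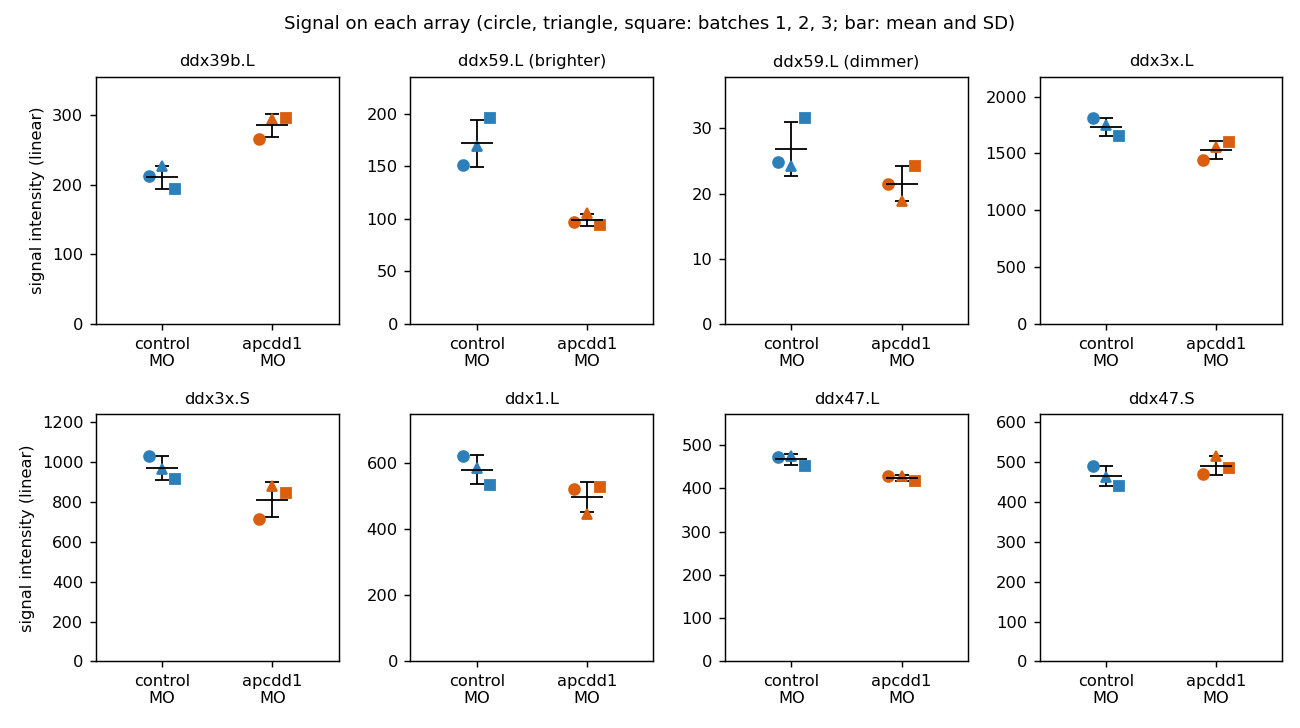
Linear signal intensity on each array (y axis from 0) for 8 probe sets in control MO and apcdd1 MO samples on the x axis, with a marker per batch and bars for the mean and SD of 3 arrays. The 8 were chosen for display with their values known, and only ddx39b.L and the brighter ddx59.L probe set were called. The 3 depleted arrays lie above all control arrays for ddx39b.L. They lie below them for the brighter ddx59.L probe set, ddx3x.L, ddx3x.S, ddx1.L and ddx47.L. The groups overlap for the dimmer ddx59.L probe set and ddx47.S. Groups without overlap were found for 19.6% of the tested members and 24.7% of all tested probe sets.

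In the group of translation, export and decay helicases 0 of 6 tested probe sets were called in limma. The 3 at an unadjusted p under 0.05 were those of ddx3x.L, ddx3x.S and ddx1.L. ddx3x encodes a helicase that helps ribosomes start on mRNAs with structured leaders. ddx3x.S gave 1033, 967 and 914 in control and 714, 879 and 845 in depleted arrays, and ddx3x.L gave 1809, 1746 and 1651 against 1439, 1553 and 1597. For each copy the groups did not overlap, and depleted batch 1 was lowest. The log2 changes were -0.26 ± 0.09 for ddx3x.S and -0.18 ± 0.06 for ddx3x.L (SE), with adjusted p = 0.12 and 0.13 in limma. These 2 stood nearest to the threshold among the uncalled members. The ddx3x.L probe set carries the suffix _s_at, which marks probes shared between transcripts, so it may read both copies.

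ddx1.L, encoding a subunit of the tRNA ligase complex, gave 622, 584 and 533 in control and 520, 445 and 527 in depleted arrays. Control batch 3 and depleted batch 3 were almost equal. Its log2 change of -0.22 ± 0.09 (SE) did not pass (adjusted p = 0.19 in limma). The rest of this group stood close to 0. For ddx6.L, encoding a helicase that holds back translation and promotes removal of the cap, the log2 change was -0.07 ± 0.09. The brighter probe set of dhx29.L, a factor of ribosome scanning, gave -0.07 ± 0.07, and ddx19b.S, a helicase of mRNA export at the nuclear pore, gave 0.06 ± 0.07 (SE). Over the 6 tested probe sets of the group the median log2 change was -0.12, and the 95% interval of each lay within 1.5-fold.

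Splicing helicases held the call for ddx39b.L and otherwise showed no called difference, with 1 of 9 tested probe sets higher, 0 lower and a median of 0.00. The 3 at an unadjusted p under 0.05 were ddx39a.L, the dimmer probe set of dhx8.S and ddx39b.L. ddx39a, a close paralog of ddx39b that also serves mRNA export, gave 4516, 4832 and 4821 in control and 4435, 4188 and 4379 in depleted arrays for its L copy. The depleted arrays lay just under the control arrays, with a log2 change of -0.12 ± 0.05 (SE; limma, adjusted p = 0.18). ddx39a.S, at 3958 ± 230 and 3948 ± 171 (SD, n = 3), differed by -0.00 ± 0.06.

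dhx8 encodes the helicase that releases spliced mRNA. Its dimmer probe set, of the shared type, gave 95.8, 96.9 and 65.5 in control and 54.0, 68.0 and 67.7 in depleted arrays. Control batch 3 lay among the depleted arrays, and without it the log2 change of -0.43 ± 0.16 (SE; limma, adjusted p = 0.18) became -0.61 with adjusted p = 0.014. Over all fits with 1 array left out, the change ran from -0.61 to -0.32. The adjusted p in limma ran from 0.014 to 0.49, so the value depends on the array left out. The brighter probe set of the same copy, at 1029 ± 67.5 and 998 ± 14.1 (SD, n = 3), gave -0.04 ± 0.06. dhx15.L, encoding a helicase of spliceosome disassembly, varied more between control batches (843, 980 and 1185) than between the group means, as did ddx42.L (221, 250 and 321) and ddx46.L (459, 475 and 355), both of which encode partners of the U2 snRNP. On these 3 the depleted arrays spread less, at 996 to 1076, 249 to 284 and 447 to 470. ddx42.S stood at -0.10 ± 0.08 (SE).

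Ribosome assembly helicases formed the largest role group and showed no called difference. In limma 0 of 22 tested probe sets, covering 17 gene copies, were called (1 at an unadjusted p under 0.05), beside 6.62% of all tested probe sets. The log2 changes of the 22 split evenly, 11 above and 11 below 0, around a median of 0.00. All 22 intervals lay within 1.5-fold, from -0.41 at the lowest bound to 0.43 at the highest. The largest difference on a brightest probe set was in dhx37.L, whose protein works with UTP14 on the small subunit precursor. It gave 316, 320 and 279 in control and 236, 274 and 284 in depleted arrays, which overlap, with a log2 change of -0.21 ± 0.09 (SE; limma, adjusted p = 0.26). The smallest was in ddx10.S, at 586 ± 35.3 and 591 ± 21.6 (SD, n = 3).

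ddx21.L, which encodes a nucleolar helicase of rRNA transcription and processing, gave 1245, 1182 and 1139 in control and 1136, 1189 and 1195 in depleted arrays, and the groups overlapped. ddx18.L, the homolog of yeast Has1, was read by 3 probe sets with log2 changes of 0.06 ± 0.06, -0.06 ± 0.06 and -0.08 ± 0.07 (SE). Of 2 probe sets of ddx51.L, the brighter gave -0.16 ± 0.09 and the dimmer 0.17 ± 0.11 (SE). ddx24.L was the only member besides ddx39b.L whose depleted arrays all lay above the control arrays, as they did for 11.9% of all tested probe sets. Its signals were 520, 536 and 482 in control and 579, 553 and 542 in depleted arrays, a log2 change of 0.12 ± 0.07 (SE; limma, adjusted p = 0.37).

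Apart from ddx47, described with the homeologs, the remaining helicases of ribosome assembly ranged on the log2 scale from -0.15 ± 0.08 for ddx49.S to 0.08 ± 0.09 for ddx31.L (SE). Between them stood ddx55.S at -0.12, ddx54.L and ddx21.S at -0.07, ddx27.L at -0.04, the dimmer ddx56.L probe set at 0.02, ddx52.S at 0.03 and ddx52.L and the brighter ddx56.L probe set at 0.07. The second probe set of ddx10.S had the widest spread between control batches of the group, 202, 157 and 127, against 168, 160 and 168 in depleted embryos.

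Helicases of transcription and of G-quadruplex RNA, with 6 probe sets of 3 genes, stood closest to 0 of the role groups. Their median size of the log2 change was 0.04, against 0.07 or more in the others and 0.10 over all tested probe sets. These differences in size were not tested. None of 6 probe sets was called in limma, and 0 had an unadjusted p under 0.05. ddx5 and ddx17 encode paralogs that serve as transcription cofactors and splicing regulators. ddx5.S gave 4668, 4544 and 4814 in control and 4840, 4600 and 4647 in depleted arrays, and ddx5.L gave 3244, 3331 and 3369 against 3586, 3385 and 3260. The groups overlapped for each copy, with log2 changes of 0.01 ± 0.04 and 0.04 ± 0.05 (SE). ddx17.L stood at -0.02 ± 0.06, and the 3 probe sets of dhx9.L, which encodes a nuclear helicase of many roles, at -0.05, -0.07 and -0.06. The intervals of the 6 ran from -0.26 to 0.16. The 1 other member, dhx32.L, of little known function, gave 137, 135 and 134 in control and 122, 127 and 120 in depleted arrays, without overlap and with a log2 change of -0.14 ± 0.07 (SE) that did not pass (adjusted p = 0.36 in limma).

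By name, a smaller share of dhx than of ddx probe sets passed the filter. All 37 ddx probe sets passed it, against 9 of 15 dhx probe sets. By its definition the filter leaves out 40% of the probe sets of the array. All members have a single gene symbol, and of the probe sets with 1 symbol 10784 of 15504 passed. The dhx share is near the background of the array and below that of probe sets with 1 symbol. The ddx share is above both, and neither difference was tested. The 6 dim ones belong to dhx30.S (2 probe sets), whose protein serves the mitochondrial ribosome in mammals, dhx33.L (2), dhx58.L, which encodes an innate immune sensor of viral RNA, and dhx29.L (1 of 2). Their signals lay between 6.26 and 14.7 on all arrays, and nothing in the files shows them to exceed background. In the fit without the filter the lowest adjusted p among them was 0.25 in limma. dhx58.L, for example, stood at 7.33 ± 1.05 and 7.78 ± 0.889 (SD, n = 3). In limma 2 of the 37 ddx probe sets and 0 of the 9 tested dhx probe sets were called (7 and 2 at an unadjusted p under 0.05), a difference that was not tested.

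Across the family, the arrays of the 2 groups did not overlap for 9 of 46 probe sets (19.6%), 2 with all depleted arrays above and 7 with all below. Over all tested probe sets the share was 24.7%, with 11.9% above and 12.8% below. Of the 9, the uncalled ones were ddx24.L above, and ddx3x.L, ddx3x.S, ddx1.L, ddx39a.L, ddx47.L and dhx32.L below. The median deviation of the 46 probe sets from their own mean over the 6 arrays was -0.01, 0.05 and 0.02 on the control arrays and -0.03, -0.01 and -0.01 on the depleted arrays (log2). Median SDs of the log2 signals were 0.09 for control and 0.06 for depleted batches, against 0.10 and 0.09 over all tested probe sets.

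**Figure D3:**
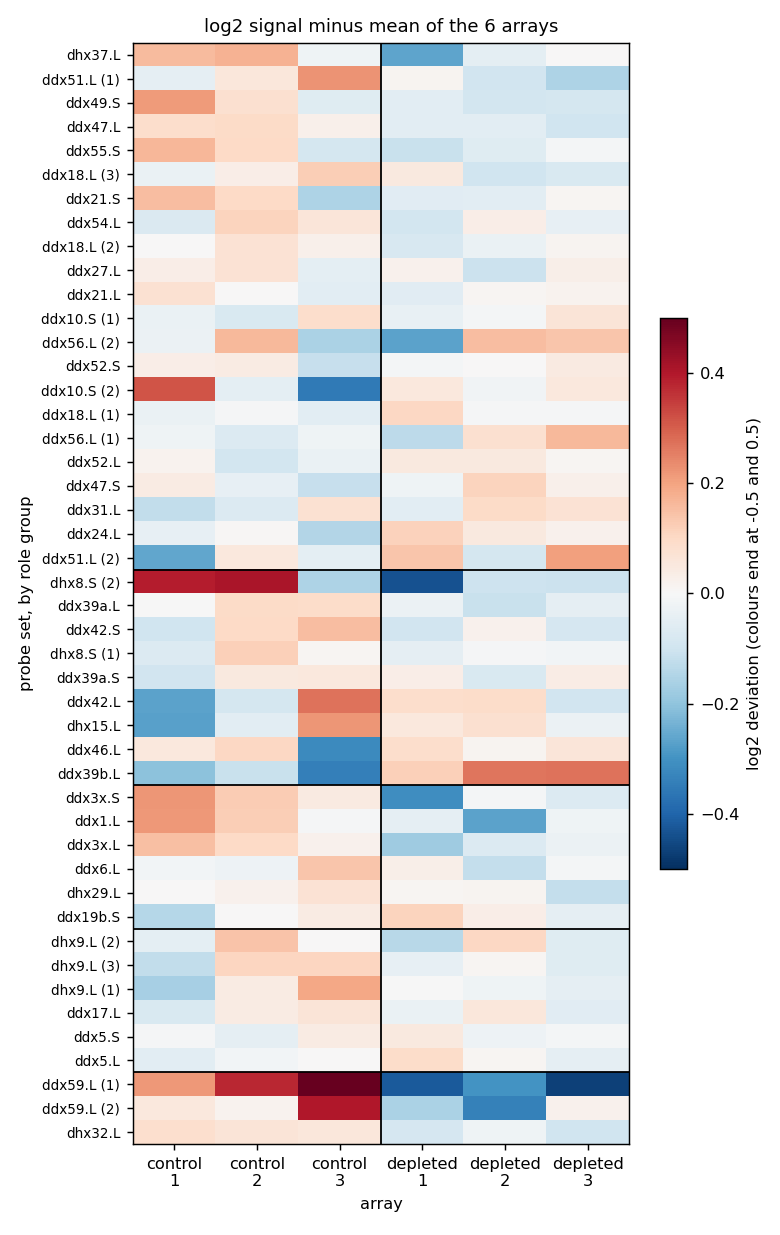
Log2 signal of each tested member minus its mean over the 6 arrays (colour), with arrays on the x axis and probe sets by role group on the y axis, in the same order as in the plot of changes. Rows that split by group are few, ddx59.L and ddx39b.L being the clearest. The control batches spread widely for ddx42.L, dhx15.L, ddx46.L and the dimmer probe sets of ddx10.S and dhx8.S.

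Whether the homeologs of a gene changed differently was tested on the log2 difference between the L and S copies on each array. Both copies were tested for 7 of the 33 genes. The test called 0 of the 7 pairs in limma, while it called 12.1% of all 1385 pairs on the array. An unadjusted p under 0.05 was found for 1 of the 7 (14.3%) and for 26.1% of all pairs. The pair nearest to a call, named after its values were seen, was ddx47, which encodes a helicase of early pre-rRNA cleavage. ddx47.L gave 473, 476 and 453 in control and 429, 429 and 416 in depleted arrays, without overlap. ddx47.S gave 491, 463 and 440 in control and 470, 516 and 485 in depleted arrays, which overlap. The changes of -0.14 ± 0.06 and 0.08 ± 0.07 (SE) differed by -0.21 with a 95% interval from -0.36 to -0.06 (adjusted p = 0.073 in limma over all pairs). The pair was called in 1 of 16 alternatives, with array weights (adjusted p = 0.012 in limma), where 300 pairs over all genes were called. With 1 array left out, its adjusted p ran from 0.064 to 0.24 in limma.

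The other pairs differed by less. For ddx39a the change of L minus that of S was -0.12 with an interval from -0.25 to 0.01, and for ddx42 it was 0.16 with an interval from -0.07 to 0.39. The pairs of ddx3x (0.08), ddx21 (0.05), ddx52 (0.05) and ddx5 (0.03) had intervals that reached no further than -0.12 and 0.24 in either direction. A probe set that reads both copies would make such a difference smaller, and how far that applies here was not tested.

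**Figure D4:**
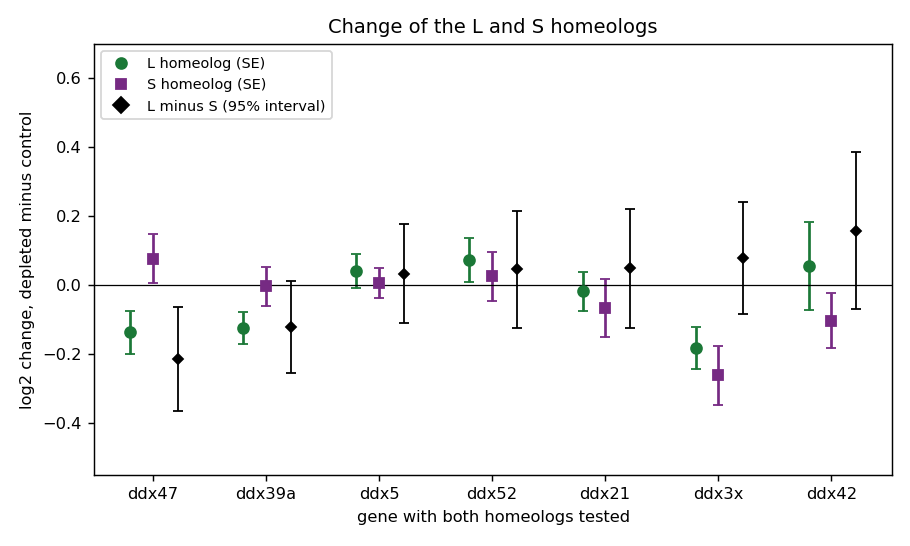
Log2 change (depleted minus control, y axis) of the L copy (circles, SE) and the S copy (squares, SE), and the difference between the changes (diamonds, 95% interval), for the 7 genes with both copies tested (x axis). Intervals include 0 for every gene except ddx47, whose pair was not called after adjustment over 1385 pairs.

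RNA helicases that carry other names had few matches by symbol or synonym. The name rule leaves them out of the counts above, also where they are DEAD box proteins, as those of the eif4a genes are. Of 21 listed entries, 6 matched, with 8 tested probe sets. Some entries are different names of the same gene, and probe sets without a symbol could not be matched. An unmatched entry may therefore still be on the array. In limma 1 of the 8 was lower (3.61% of all tested probe sets) and 0 were higher (3.00%), and their median log2 change was -0.09. The one that fell was upf1.S, encoding the central helicase of nonsense-mediated decay, from 195 ± 15.5 to 152 ± 5.82 (SD, n = 3; limma gave adjusted p = 0.031). Its call ended when any single array except control batch 1 was left out, with adjusted p between 0.064 and 0.13 in limma, and with the replicate block (adjusted p = 0.059 in limma). The largest log2 change of the list was in eif4a2.L, a translation helicase gene, which gave 155, 205 and 180 in control and 146, 144 and 124 in depleted arrays. The groups did not overlap, and the change of -0.38 ± 0.11 (SE) did not pass (adjusted p = 0.084 in limma). Its relative eif4a1.S averaged 4387 in control and 3996 in depleted arrays on its bright probe set, without overlap (limma, adjusted p = 0.14), and eif4a3.1.S, of the exon junction complex, 4258 and 4135, neither called.

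Known partners and cofactors of the helicases were also near background. Of 75 tested probe sets for 39 genes, 2 were higher and 2 lower in limma (5.33%), with a median of 0.00. lsm14b.L, encoding an RNA-binding protein of the family that works with Ddx6, rose from 690 ± 28.2 to 875 ± 31.4 (SD, n = 3; limma gave adjusted p = 0.0088), while lsm14b.S stood at 782 ± 48.2 and 775 ± 54.3. gemin2.S, of the SMN complex that holds Ddx20, was called higher on 1 of its 2 probe sets (log2 change 0.31 ± 0.07 SE). The other gave 0.07 ± 0.07 (SE). edc4.L, a decapping scaffold gene, and gpatch4.L, encoding a nucleolar G-patch protein, were called lower on 1 of the 2 tested probe sets of each. These fell by 0.23 and 0.22 on the log2 scale. The other tested probe set of each was also lower, with log2 changes of -0.18 and -0.20, and was not called. The call for lsm14b.L ended without control batch 2 (adjusted p = 0.057 in limma). The other 3 calls were lost with the replicate block and with plain eBayes. The call for edc4.L also ended whichever single array was left out (lowest adjusted p = 0.055 in limma). Those for gemin2.S and gpatch4.L ended when any of several arrays was left out. Quantile normalization and the fit without the filter ended the calls for edc4.L and gpatch4.L as well. Over these fits the adjusted p reached 0.20 in limma.

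Ribosome assembly factors that are not helicases had 5 of 76 tested probe sets called in limma (6.58%), 1 higher and 4 lower, with a median of -0.01. nop16.S, a nucleolar factor of the large subunit, fell from 607 ± 42.1 to 357 ± 20.7 (SD, n = 3; limma gave adjusted p = 3.5e-04). utp18.L, a small subunit processome gene, fell from 79.4 ± 9.89 to 39.6 ± 5.21, and mrto4.L, a large subunit factor gene, from 141 ± 6.22 to 92.2 ± 8.84. The lower call for tsr1.L (log2 change -0.31 ± 0.07 SE) ended when any single array except control batch 1 was left out, without the filter, with the replicate block and with plain eBayes, with adjusted p between 0.053 and 0.15 in limma. polr1c.L, encoding a subunit shared by RNA polymerases I and III, rose from 781 ± 61.2 to 1036 ± 16.0 (adjusted p = 0.0062 in limma). Over all tested probe sets 6.62% were called. Neither the count for these factors nor the 0 of 22 for the helicases of ribosome assembly is read as a departure from that share. The difference between the lists was not tested.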

How the data were processed

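Affymetrix signal intensities of 6 arrays were analysed as the authors deposited them, in linear units. The submitters' processing notes name MAS5, without a version, and the scaling and background steps are not given in the sources used here. Gene symbols came from the platform annotation, and the gene numbers of all 52 member probe sets are in RefSeq's table for assembly Xenopus_laevis_v10.1, where 0 symbols differ. Signals were raised to at least 1 (0 values moved), log2-transformed and not rescaled. Of 32634 probe sets, 160 controls and 12990 whose log2 signals averaged below the 40th percentile (4.48) were left out. limma 3.58.1 in R 4.3.3 (lmFit, eBayes with trend and robust) compared the groups over the remaining 19484, two-sided, with Benjamini-Hochberg adjustment, a threshold of 0.05 and no fold minimum. A homeolog was represented by its brightest tested probe set in the fit of L minus S. A permutation of 3 against 3 arrays cannot give a p under 0.1, and the number of arrays limits the precision. When this comparison was simulated over 19484 probe sets with 200 changed, 61% of 1.5-fold and 90% of 2-fold changes were recovered. The simulation drew independent normal noise and had fewer changed probe sets than the 1289 called in the data. Recovery on the real arrays may therefore differ.

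The members and lists were chosen with earlier results of these data known. The text names every called member, the other probe sets of its gene, the largest and smallest change per role group, the uncalled members nearest to the threshold and up to 6 called genes of each further list. Other members are named to account for all of them. Of 143 entries in the 5 lists of further genes and markers, 109 matched by symbol, 3 by synonym and 31 not at all. Alternatives were quantile normalization, median centring, 16 or 64 added to the signal, no filter, a stricter filter (60th percentile), array weights, a block for the replicate number, plain eBayes, each array left out, and other choices of probe sets.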

Additional observations from a re-analysis of the deposited data

How the results depend on the processing

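The call for ddx59.L was kept in all 15 alternative fits and that for ddx39b.L in 13 of 15, the exceptions being depleted batch 2 or 3 left out. Array weights moved counts most: 4449 calls over all probe sets, 9 members lower, 3 other helicases lower, 6 partners higher and 8 lower, 5 ribosome assembly factors higher and 13 lower, 300 homeolog pairs over all genes and 1 among the members. Partners lower came to 0 with quantile normalization, without the filter, with the replicate block and without trend and robust, and partners higher to 1 in each of the last 2. Leaving out 1 array gave 669 to 1430 calls over all probe sets (669 without control batch 2, 739 without depleted batch 3), 0 to 1 member higher, 1 to 2 lower, 0 to 2 other helicases lower, 0 to 2 partners higher and 0 to 1 lower, 3 to 6 ribosome assembly factors lower, and 58 to 149 homeolog pairs. Of the 44 uncalled members, 36 were called in no alternative, and the other 8 with array weights, one of them (dhx8.S) also without control batch 3. No called value changed sign, though some uncalled values near 0 did. Same-numbered arrays of the groups did not deviate together (r = 0.05, 0.02 and -0.27), so the numbers were not taken as pairs. With the replicate block 1101 probe sets were called over all, 102 homeolog pairs and 0 other helicases lower, and the members' calls were 1 higher and 1 lower as before. Scaling moved the median of all probe sets by under 0.1. Dim probe sets limit what could be measured for dhx30.S, dhx33.L and dhx58.L.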
